A study of Homo sapiens with 4 samples.

Results

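The names hsa-miR-720, hsa-miR-1274a, hsa-miR-1274b and hsa-miR-1308 were entered in miRNA catalogues and later withdrawn or linked to pieces of transfer RNA (tRNA). They were taken by name, and all 4 were among the 1100 names listed for each library. Small RNA was sequenced from exosomes and cells of the human breast lines MDA-MB-231 and MCF-10A, with 1 library for each of 4 groups: MDA-MB-231 exosomes, MDA-MB-231 cells, MCF-10A exosomes and MCF-10A cells. Exosomes are small vesicles that cells release into the medium. MDA-MB-231 comes from a triple-negative breast carcinoma and was grown in DMEM with 10% FBS per the labels. MCF-10A, a mammary epithelial line that is not transformed, was grown in DMEM/F12 with 5% horse serum, insulin, EGF, cholera toxin and hydrocortisone per the labels. The labels give no other treatment.

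tRNAs carry amino acids to the ribosome, and cells also cut them into shorter RNAs, some from the 5′ end of the tRNA and some from the 3′ end, where every mature tRNA closes with the added triplet CCA. Such fragments are known to be abundant in vesicles and body fluids. Because they have about the length of a miRNA, several were first named as miRNAs. By textbook assignment miR-1308 corresponds to the 5′ end of a glycine tRNA, miR-720 to the 3′ end of a threonine tRNA, and miR-1274a and miR-1274b to the 3′ ends of lysine tRNAs. Reads of tRNA that fall outside these names were not analysed here, and neither were the mature sequences or coordinates of the 4 names.

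Of the other tRNA-linked names fixed for comparison, hsa-miR-1260, hsa-miR-1260b and hsa-miR-1280 were among the 1100. The RefSeq sequences of the miR-1260 pair are shown because they are the tRNA-linked names with a sequence at hand, and that of miR-1246, linked to the U2 spliceosomal RNA, because it is the most abundant comparison name in both exosome libraries. Each is written 5′ to 3′, with the seed, bases 2 to 8, in capitals. The miR-1260 pair share the seed UCCCACC and differ by U9A, counted from 1 at the 5′ end of miR-1260a, and miR-1260b is longer, at 19 bases against 18. miR-1260a, taken as the later name of miR-1260, ends in CCA. In GRCh38.p14 it lies at chr14:77266231-77266248 on the plus strand, miR-1260b at chr11:96341447-96341465 on the plus strand and miR-1246 at chr2:176601024-176601042 on the minus strand.
hsa-miR-1260a: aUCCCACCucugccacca
hsa-miR-1260b: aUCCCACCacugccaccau
hsa-miR-1246: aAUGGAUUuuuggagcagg

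The deposited level of a name is the log2 of 1 plus its reads per 10000000 miRNA reads, and a level of 0 stands for 0 reads. Whole reads recovered from the values gave a depth of 1532908 in MDA-MB-231 exosomes, 7346076 in the MDA-MB-231 cell library, 1254641 in exosomes of MCF-10A and 10937895 in the MCF-10A cell-labelled library. A count of 0 allows up to 3 reads, a level of 4.36, 2.35, 4.64 and 1.90 in the same 4 libraries. With 1 library per group no value has a replicate to check it against, and p-values were not computed. Intervals are 95% and cover counting error only, with reads taken as independent. PCR copies were not marked with molecular identifiers, so reads are not independent molecules and the intervals can be too narrow.

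The MCF-10A cell-labelled library carried miRNAs of tissues other than breast epithelium. Of 35 markers of muscle, stroma, endothelium, liver, blood cells, neurons and placenta, all 35 had 10 or more reads in it, with 49.1% of its reads. The same markers took 2.37% of MDA-MB-231 exosomes (20 of 35 with 10 or more reads), 0.0687% of MDA-MB-231 cells (9 of 35) and 0.0815% of MCF-10A exosomes (11 of 35). The 7 placental markers were at 0 in those 3 libraries. The 6 epithelial markers (the miR-200 family and miR-205) took 0.0216% of reads in exosomes and 0.0458% in cells of MDA-MB-231, 4.38% in exosomes of MCF-10A and 0.967% in the MCF-10A cell-labelled library. The part of this content in the values of the 4 tRNA-linked names was not tested. In bulk libraries a smaller part of cells of one kind and less RNA per cell cannot be told apart. Every comparison with that library is given by its label.

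The 5′ fragment name miR-1308 was the most abundant of the 4 in every library. It stood at 12.00 in MDA-MB-231 exosomes (628 reads), 9.87 in MDA-MB-231 cells (687 reads), 15.71 in MCF-10A exosomes (6725 reads) and 10.30 in the MCF-10A cell-labelled library (1378 reads). It was highest in MCF-10A exosomes, then in MDA-MB-231 exosomes, and lower in both libraries labelled as cells. It ranked 82 of the 508 names above 0 in MDA-MB-231 exosomes, 129 of 566 in MDA-MB-231 cells, 17 of 436 in MCF-10A exosomes and 200 of 794 in the MCF-10A cell-labelled library. In MCF-10A exosomes it held 0.536% of all miRNA reads (Wilson interval 0.523 to 0.549), against 0.0126% (0.0120 to 0.0133) in the MCF-10A cell-labelled library. In MDA-MB-231 exosomes it held 0.0410% (0.0379 to 0.0443), against 0.00935% (0.00868 to 0.0101) in MDA-MB-231 cells. No neighbours in this order had overlapping intervals.

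miR-720, of the threonine tRNA 3′ end, stood at 8.80 in MDA-MB-231 exosomes (68 reads), 7.90 in MDA-MB-231 cells (175 reads), 9.72 in MCF-10A exosomes (106 reads) and 3.21 in the MCF-10A cell-labelled library (9 reads). The order was MCF-10A exosomes, MDA-MB-231 exosomes, MDA-MB-231 cells and, far below, the MCF-10A cell-labelled library, and the Wilson intervals of neighbours did not overlap.

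miR-1274b, of a lysine tRNA 3′ end, stood at 5.54 in MDA-MB-231 exosomes (7 reads), 8.85 in MDA-MB-231 cells (338 reads), 6.18 in MCF-10A exosomes (9 reads) and 4.83 in the MCF-10A cell-labelled library (30 reads). It was high in MDA-MB-231 cells alone. The Wilson interval of MDA-MB-231 exosomes overlapped those of MCF-10A exosomes and of the MCF-10A cell-labelled library, so its place among these 3 was not resolved. For MCF-10A exosomes over the MCF-10A cell-labelled library the exact interval of the ratio was 1.09 to 5.65. With other-tissue markers left out of the totals it was 0.556 to 2.88, which includes no difference.

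miR-1274a, the other lysine tRNA name, had 94 reads in MDA-MB-231 cells, a level of 7.01. It had 0 reads in MDA-MB-231 exosomes, 1 read in MCF-10A exosomes (a level of 3.17) and 0 reads in the MCF-10A cell-labelled library. Outside MDA-MB-231 cells it was therefore at or under the 3-read level in each library.

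**Figure D1:**
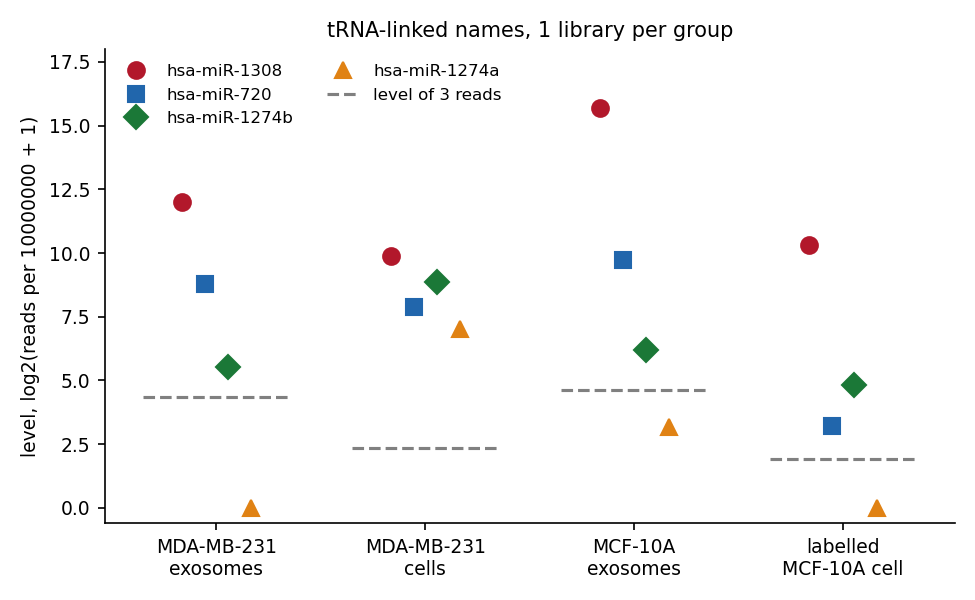
Deposited level of each tRNA-linked name (y axis, log2 of reads per 10000000 plus 1) in each of the 4 libraries (x axis), 1 point per library, with dashed lines at the level of 3 reads. miR-1308 reached 15.71 in MCF-10A exosomes, while miR-1274a stood above the 3-read line in MDA-MB-231 cells alone.

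Summed, the 4 names were a small part of every library and a larger part of exosomes than of the libraries labelled as cells. Their share was 0.0459% in MDA-MB-231 exosomes (703 reads, Wilson interval 0.0426 to 0.0494), 0.0176% in MDA-MB-231 cells (1294 reads, 0.0167 to 0.0186), 0.545% in MCF-10A exosomes (6841 reads, 0.533 to 0.558) and 0.0130% in the MCF-10A cell-labelled library (1417 reads, 0.0123 to 0.0136). Without miR-1308, the 3 names of tRNA 3′ ends summed to 75 reads in exosomes and 607 in cells of MDA-MB-231, levels of 489 and 826 reads per 10000000. The same sum was 116 reads in MCF-10A exosomes and 39 in the MCF-10A cell-labelled library, or 925 and 35.7 reads per 10000000. The 3′ end names together were thus lower in exosomes than in cells of MDA-MB-231, and higher in MCF-10A exosomes than in the MCF-10A cell-labelled library.

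The make-up within the 4 names does not depend on how libraries are scaled to each other. miR-1308 held 89.3% of their reads in MDA-MB-231 exosomes (Wilson interval 86.8 to 91.4) and 53.1% in MDA-MB-231 cells (50.4 to 55.8). It held 98.3% in MCF-10A exosomes (98.0 to 98.6) and 97.2% in the MCF-10A cell-labelled library (96.3 to 98.0). MDA-MB-231 cells were the mixed library, with 26.1% of the reads on miR-1274b (23.8 to 28.6), 13.5% on miR-720 (11.8 to 15.5) and 7.26% on miR-1274a (5.97 to 8.81). In MDA-MB-231 exosomes miR-1274b held 0.996% (0.483 to 2.04) and miR-720 held 9.67% (7.70 to 12.1). In MCF-10A exosomes miR-720 held 1.55% (1.28 to 1.87) and miR-1274b 0.132% (0.0692 to 0.250), against 0.635% (0.335 to 1.20) and 2.12% (1.49 to 3.01) in the MCF-10A cell-labelled library.

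**Figure D2:**
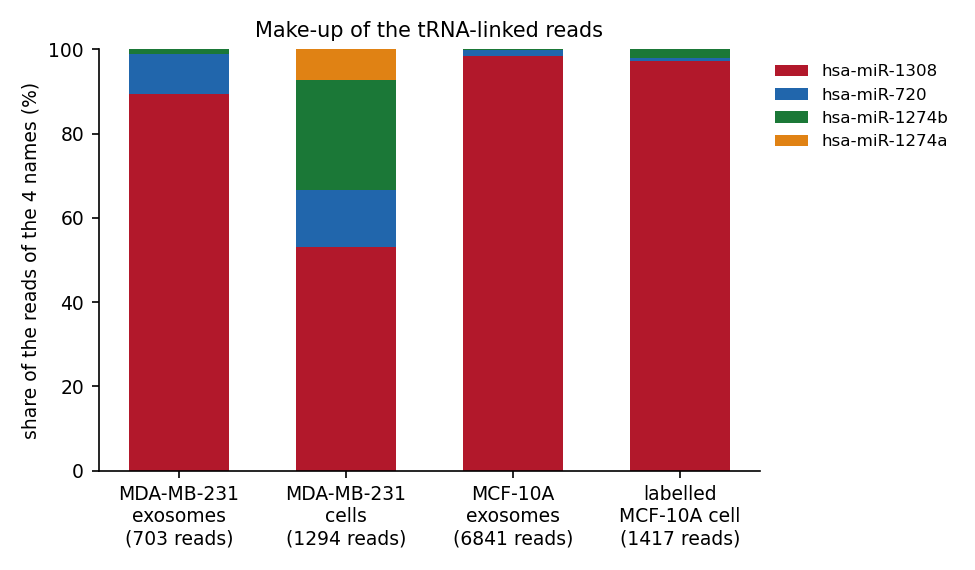
Share of the reads of the 4 tRNA-linked names taken by each name (y axis, percent) in each library (x axis, total reads of the 4 names in parentheses). miR-1308 made up 89.3% and 53.1% in MDA-MB-231 exosomes and cells, and 98.3% and 97.2% in MCF-10A exosomes and the MCF-10A cell-labelled library.

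The balance of the threonine and lysine 3′ end names differed between exosomes and cells in MDA-MB-231, and in MCF-10A as far as its cell-labelled library serves for cells. There were 9.71 reads of miR-720 for each read of miR-1274b in MDA-MB-231 exosomes (4.47 to 25.1), against 0.518 in MDA-MB-231 cells (0.429 to 0.623). The same ratio was 11.8 in MCF-10A exosomes (5.98 to 26.5), against 0.300 in the MCF-10A cell-labelled library (0.125 to 0.648). Reads are not corrected for length, which cancels when a ratio is set against the same ratio of another library. Set that way, as the conditional odds ratio with its exact interval, the ratio was 18.7-fold higher in exosomes than in cells of MDA-MB-231 (8.35 to 49.2) and 37.5-fold higher in MCF-10A exosomes than in the MCF-10A cell-labelled library (13 to 122). Between the lines the intervals included no difference, at 0.826 for MDA-MB-231 over MCF-10A exosomes (0.260 to 2.74) and 1.72 for MDA-MB-231 cells over the MCF-10A cell-labelled library (0.776 to 4.22). The fewest reads behind these intervals were 7 and 9 of miR-1274b in exosomes of MDA-MB-231 and MCF-10A, and 9 of miR-720 in the MCF-10A cell-labelled library.

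The 5′ end name against the lysine 3′ end name gave the same direction. There were 89.7 reads of miR-1308 per read of miR-1274b in MDA-MB-231 exosomes (43.3 to 224) and 2.03 in MDA-MB-231 cells (1.78 to 2.32), an odds ratio of 44.1 (20.9 to 111). In MCF-10A exosomes the ratio was 747 (393 to 1635) and in the MCF-10A cell-labelled library 45.9 (32.0 to 68.3), an odds ratio of 16.3 (7.50 to 39.0). Here the lines differed as well, with an odds ratio of 0.120 for MDA-MB-231 over MCF-10A exosomes (0.0397 to 0.381).

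miR-1308 against miR-720 did not separate exosomes from cells in the same direction. The ratio was 9.24 in MDA-MB-231 exosomes (7.18 to 12.0) and 3.93 in MDA-MB-231 cells (3.32 to 4.66), an odds ratio of 2.35 (1.73 to 3.23). It was 63.4 in MCF-10A exosomes (52.4 to 77.6) and 153 in the MCF-10A cell-labelled library (80.4 to 336), an odds ratio of 0.414 (0.184 to 0.820). Between exosomes of the lines the odds ratio was 0.146 (0.105 to 0.203), and between MDA-MB-231 cells and the MCF-10A cell-labelled library 0.0257 (0.0115 to 0.0503).

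**Figure D3:**
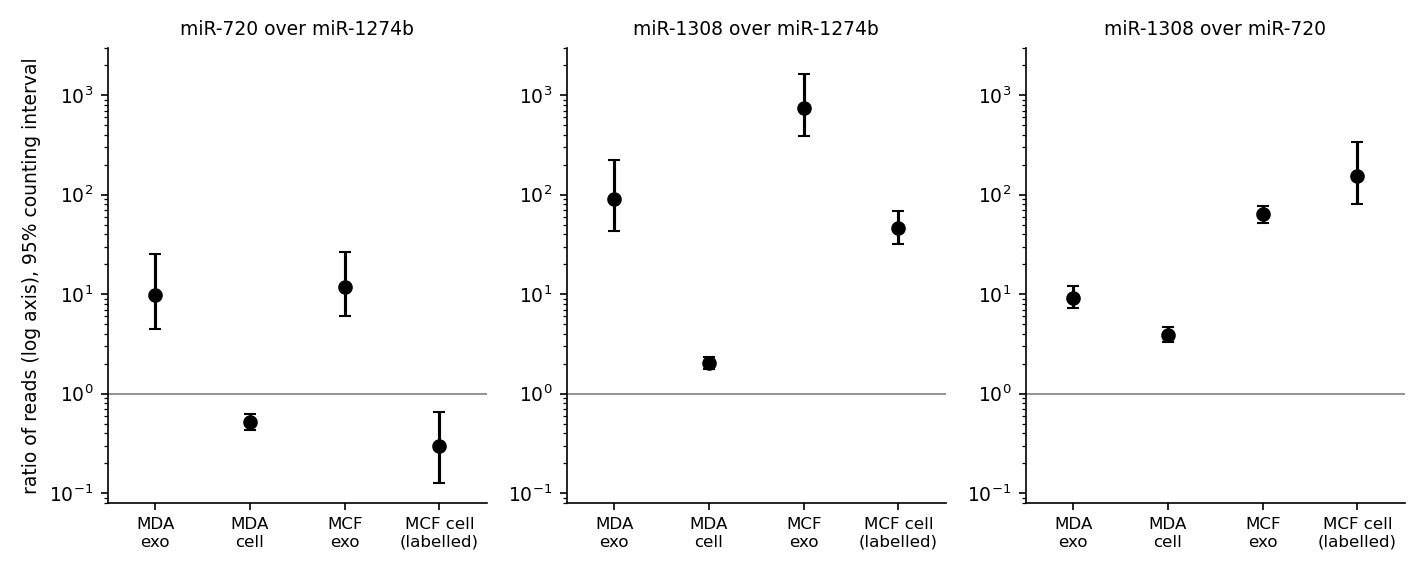
Ratio of the reads of a pair of tRNA-linked names within each library (y axis, log scale, bars are 95% counting intervals), with 1 panel per pair and the 4 libraries along x (exo, exosomes). The miR-720 over miR-1274b ratio stood at 9.71 and 11.8 in exosomes and at 0.518 and 0.300 in the libraries labelled as cells.

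In the comparison of exosomes with their parent cells in MDA-MB-231, the 4 names went different ways. miR-1308 was 4.38-fold higher in exosomes (3.93 to 4.89) and miR-720 1.86-fold higher (1.39 to 2.48). miR-1274b was 10.1-fold lower in exosomes (4.84 to 25.3), and miR-1274a, with 0 against 94 reads, at least 6.54-fold lower with exosomes set at 3 reads, or with a counting limit of 5.21-fold. At a 4-fold size, a log2 difference of 2, 1 of the 4 was higher and 2 were lower. Among all 499 names with at least 10 reads per 10000000 in either library, 22.2% were higher by that size and 13.4% lower. The median log2 fold was -1.21 for the 4 names (-0.90 with miR-1274a at its 3-read bound) and -0.09 for all names. By the deposited difference miR-1274a ranked 3 from the lowest end of the 499, and miR-1308 ranked 108 from the highest. The rank of miR-1274a rests on 0 reads and a pseudocount of 1 per 10000000. At its bound of 6.54-fold it would be less extreme than miR-1274b, which ranked 32 from the lowest.

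In MCF-10A the exosomes were set against the MCF-10A cell-labelled library. miR-720 was 103-fold higher in exosomes (52.1 to 231), miR-1308 42.5-fold higher (40.1 to 45.1) and miR-1274b 2.62-fold higher (1.09 to 5.65). miR-1274a, with 1 and 0 reads, did not reach the minimum and no fold is given. Of the 3 names compared, 2 were at least 4-fold higher and 0 lower, where 15.4% of all 661 names were higher and 57.2% lower. The median log2 fold was 5.41 for the 3 names and -3.27 for all names, so the 3 names stood high in a comparison in which most names were lower. Counted from the highest of the 661, miR-720 ranked 5 and miR-1308 ranked 11. With the reads of the other-tissue markers left out of the totals, the log2 folds were 5.61 for miR-720, 4.44 for miR-1308 and 0.40 for miR-1274b.

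The exosome-over-cell log2 fold of MDA-MB-231 minus that of MCF-10A was -5.61 for miR-720 (0.90 against 6.51), -4.66 for miR-1274b (-3.31 against 1.35) and -3.28 for miR-1308 (2.13 against 5.41). No such difference is given for miR-1274a, which had 1 and 0 reads in the MCF-10A libraries. The counting errors (SE) of these differences were 0.54, 0.78 and 0.09 in that order. The median of the same difference over 701 names was 2.91, and it rests on the MCF-10A cell-labelled library.

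**Figure D4:**
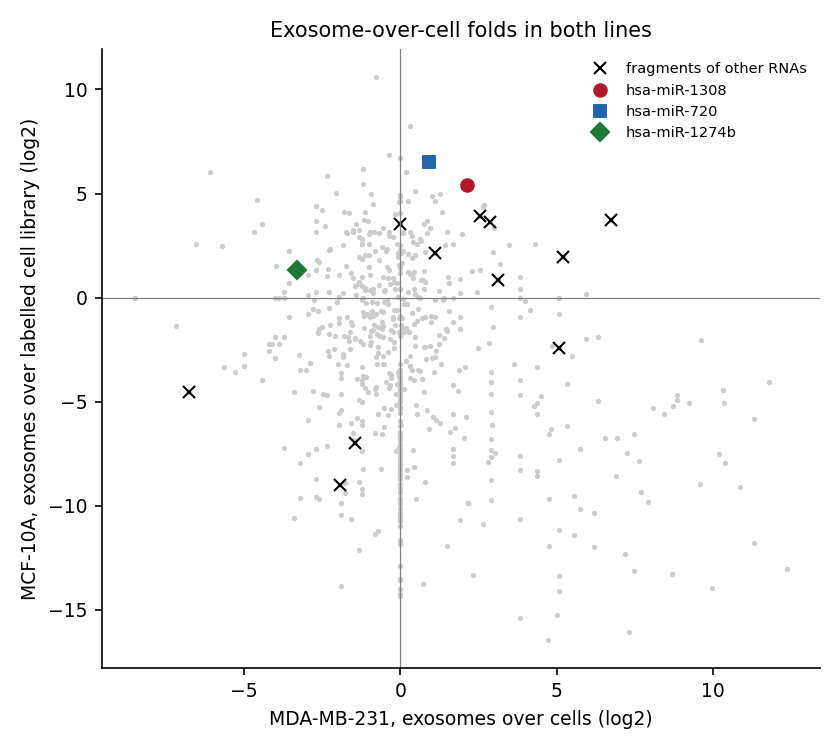
Exosome-over-cell log2 fold of each name in MDA-MB-231 (x axis) and in MCF-10A against the MCF-10A cell-labelled library (y axis), with grey points for all names past the minimum in any library, crosses for names linked to other RNAs and coloured marks for 3 of the 4 tRNA-linked names. miR-1308 (2.13 and 5.41) and miR-720 (0.90 and 6.51) lie above 0 on both axes and miR-1274b (-3.31 and 1.35) on 1 of them; miR-1274a is left out because it had 1 and 0 reads in the MCF-10A libraries.

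Between the exosomes of the lines, miR-1308 was 13.1-fold lower in those of MDA-MB-231 than in those of MCF-10A (12.1 to 14.2) and miR-720 1.90-fold lower (1.39 to 2.62). miR-1274b, with 7 reads in MDA-MB-231 and 9 in MCF-10A exosomes, had a ratio of 0.637 with an interval of 0.201 to 1.92, and a difference was not detectable at this depth. miR-1274a, with 0 and 1 reads, did not reach the minimum. Of the 3 names compared 0 were at least 4-fold higher and 1 was lower, beside 29.3% higher and 19% lower among all 505 names. The median log2 fold was -0.92 for the 3 names and 0.59 for all.

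In MDA-MB-231 cells set against the MCF-10A cell-labelled library, all 3 names of tRNA 3′ ends were higher. Here miR-720 was 29.0-fold higher (14.9 to 64.4) and miR-1274b 16.8-fold higher (11.5 to 25.3). miR-1274a, with 94 against 0 reads, was at least 46.7-fold higher with the MCF-10A cell-labelled library set at 3 reads, or with a counting limit of 37.2-fold. miR-1308 was 1.35-fold lower (1.23 to 1.48), a log2 fold of -0.43 that became 0.77 under upper-quartile scaling. With the other-tissue markers left out of the totals, miR-720 was 14.7-fold higher (7.59 to 32.8), miR-1274b 8.54-fold higher (5.87 to 12.9) and miR-1308 2.65-fold lower (2.41 to 2.90). Of the 4 names 3 were at least 4-fold higher and 0 lower, beside 17.4% higher and 54.3% lower among all 665 names, with medians of 4.36 and -2.83.

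MDA-MB-231 cells can also be set against MCF-10A exosomes, which differ in both line and fraction but leave out the MCF-10A cell-labelled library. In MDA-MB-231 cells miR-1308 was 57.3-fold lower (53.0 to 62.1) and miR-720 3.55-fold lower (2.76 to 4.54), while miR-1274b was 6.41-fold higher (3.34 to 14.1) and miR-1274a, with 94 against 1 read, 16.1-fold higher (2.81 to 641). This made 2 of the 4 at least 4-fold higher and 1 lower, beside 26.6% and 19.3% of all 482 names. These comparisons share libraries, so their values are not independent of each other.

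**Figure D5:**
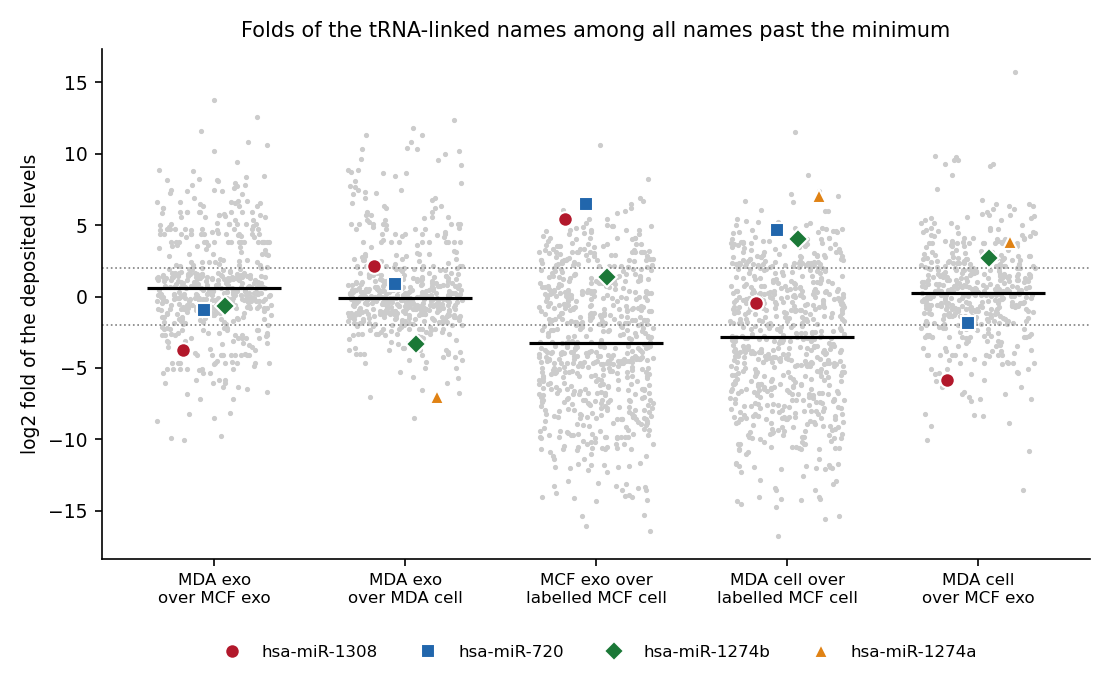
Log2 fold of the deposited levels (y axis) of the tRNA-linked names (coloured marks) and of all names past the minimum (grey points, median as a black line) in 5 comparisons (x axis; MDA, MDA-MB-231; MCF, MCF-10A; exo, exosomes), with dotted lines at the 4-fold size. In MCF-10A exosomes over the MCF-10A cell-labelled library the median of all names was -3.27, and miR-720 stood at 6.51 and miR-1308 at 5.41.

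The other tRNA-linked names were nearly absent. miR-1260 had 1 read in MDA-MB-231 cells and 0 elsewhere. miR-1260b had 4 reads in MCF-10A exosomes and 11 in the MCF-10A cell-labelled library, and 0 reads in both MDA-MB-231 libraries. miR-1280, linked to a leucine tRNA, was read 7 times in MDA-MB-231 cells and had 0 reads in the other 3 libraries. Their sum was 0, 8, 4 and 11 reads in MDA-MB-231 exosomes, MDA-MB-231 cells, MCF-10A exosomes and the MCF-10A cell-labelled library, against 703, 1294, 6841 and 1417 for the 4 names described here.

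Names linked to other non-coding RNAs were set beside the tRNA-linked ones. Of 11 such names 10 reached the minimum in MDA-MB-231 exosomes over cells. Of these, 6 were at least 4-fold higher and 1 lower, with a median log2 fold of 2.71. The 4 tRNA-linked names had 1 higher, 2 lower and -1.21, and all names 22.2% higher, 13.4% lower and -0.09. Among the 6 higher names, miR-1973 rested on 3 against 1 reads (ratio interval 1.15 to 755) and miR-1248 on 5 against 0. miR-1246 was 106-fold higher in MDA-MB-231 exosomes (102 to 111), and miR-1975 and miR-1979, linked to Y RNAs, 36.9-fold (32.2 to 42.5) and 7.31-fold higher (6.86 to 7.79). In MCF-10A exosomes over the MCF-10A cell-labelled library the 11 names divided, with 5 at least 4-fold higher, 4 lower and a median log2 fold of 1.94, where all names had 15.4% higher, 57.2% lower and a median of -3.27. There miR-1979 was 12.2-fold higher (11.7 to 12.7), while miR-886-5p, linked to a vault RNA-like transcript, was at least 21.4-fold lower with 0 against 559 reads. Some calls of MCF-10A exosomes over that library rest on few reads, with miR-1290 higher at 4 against 2 reads and miR-1248 lower at 1 against 52. For miR-1201, called lower with 0 against 24 reads, the ratio interval was 0 to 1.45, so a difference was not detectable. Between exosomes of MDA-MB-231 and MCF-10A, 2 of 10 were at least 4-fold higher and 1 lower, beside 29.3% and 19% of all names, with medians of 0.53 and 0.59. Of these calls, miR-886-3p (higher, 5 against 0 reads) and miR-1290 (lower, 0 against 4 reads) had ratio intervals that included no difference. In that comparison miR-1979 was 2.81-fold lower (2.68 to 2.95), miR-1246 2.53-fold higher (2.49 to 2.58) and miR-886-5p, with 2112 against 0 reads, at least 576-fold higher.

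Names with the most similar profiles were sought over the 4 libraries, as the smallest root mean square difference of log2 levels after centring each name on its own mean. The search ran over 565 other names that reached 50 reads per 10000000 somewhere. Nearest to miR-1308 were let-7b (0.69), miR-1244 (0.70), miR-1979 (0.84), miR-550 (0.89) and miR-296-3p (1.02). Nearest to miR-720 were miR-29b-1* (0.52), miR-25* (0.69), miR-183 (0.71), miR-584 (0.77) and miR-1254 (0.80). miR-1274b had closer neighbours, let-7a-2* (0.29), miR-100* (0.29), miR-24-2* (0.56), miR-769-5p (0.63) and miR-769-3p (0.64). Nearest to miR-1274a were miR-1275 (0.77), miR-548f (1.42), miR-100* (1.43), miR-1274b (1.46) and let-7a-2* (1.61). Among the 4 names themselves, miR-1274a and miR-1274b were the closest pair at 1.46 and miR-1274a and miR-1308 the farthest at 3.88. With 4 libraries and few reads this likeness is a description of these libraries.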

How the data were processed

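The authors deposited 1 file per library with log2 values, to 2 decimals, for 1100 miRNA names. Per the labels' protocols, RNAs of 17 to 52 nt were selected and ligated in a way that requires a 5′ monophosphate, so fragments without one would be missed. The submitters' processing notes name Novoalign, edgeR and hg18 without saying what each was used for. How reads were assigned to names, or shared among copies of a tRNA, is not given in the sources used here. Undoing the log2 and subtracting 1 gave library sums between 9992361 and 10004141, from which the scale was taken. Low values are whole multiples of 1 step (6.52, 1.36, 7.97 and 0.914 reads per 10000000 for MDA-MB-231 exosomes, MDA-MB-231 cells, MCF-10A exosomes and the MCF-10A cell-labelled library). For 100% of the names whose rounding interval was under 0.5 reads wide a whole number lay within it. Such names were 65.7%, 55.7%, 65.6% and 40.1% of those above 0 in the same 4 libraries. Larger counts are the nearest whole number, could not be checked this way and are approximate. Folds called at 4-fold are differences of deposited log2 values (pseudocount 1 per 10000000, minimum 10 in either library). Fold values in the text are ratios of recovered reads per depth with exact conditional binomial intervals. The recovery and the calls were tested on data simulated from the levels of MDA-MB-231 exosomes, at the depths of the exosome libraries only. The depths of the MDA-MB-231 cell library and the MCF-10A cell-labelled library were not simulated. Named miRNAs are the 4 names, 2 comparison lists and the 5 most similar names to each of the 4; some listed names were not analysed here. The names, lists and rules were chosen with earlier results of these data known. Alternatives were other scalings, totals, pseudocounts, minimum levels and fold sizes. Python 3.11.15, NumPy 2.4.6, pandas 2.3.3, SciPy 1.17.1 and matplotlib 3.10.9 were used.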

Additional observations from a re-analysis of the deposited data

Results flagged for a closer look

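Directions that were opposite between groups, with counting intervals away from no difference in both, were found for 2 of the 4 names, and neither difference was tested, since each group held 1 library. miR-1274b was lower in exosomes than in cells of MDA-MB-231, at a log2 fold of -3.31, and higher in MCF-10A exosomes than in the MCF-10A cell-labelled library, at 1.35. miR-720 was lower in exosomes of MDA-MB-231 than in those of MCF-10A, at a log2 fold of -0.92, and higher in MDA-MB-231 cells than in the MCF-10A cell-labelled library, at 4.69. The second value of each pair rests on that library, in which markers of other tissues took 49.1% of the reads. With those markers left out of the totals the second value of miR-1274b was 0.40, a ratio of 1.33 whose interval (0.556 to 2.88) includes no difference, so its opposite direction was no longer resolved. For miR-720 the values were then -0.89 and 3.79, with ratios of 0.537 (0.390 to 0.735) and 14.7 (7.59 to 32.8).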

How the results depend on the processing

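Of 108 member folds recomputed under other scalings, totals, pseudocounts or minimum levels, 107 had the same sign and 87 lay within the counting interval. The other sign was that of miR-1308 in MDA-MB-231 cells over the MCF-10A cell-labelled library, at 0.77 under upper-quartile scaling against -0.43. Dropping the minimum level cannot change a fold, so those recomputed folds were the same by construction. Leaving the listed fragment names out of the totals multiplied levels by only 1.00 to 1.04, so those folds could hardly move. Under upper-quartile scaling the 4-fold counts became 2 lower for MDA-MB-231 over MCF-10A exosomes, beside 24.8% of all names. They became 4 higher for MCF-10A exosomes over the MCF-10A cell-labelled library (1 of them miR-1274a, with 1 and 0 reads), beside 28.0%. For MDA-MB-231 cells over MCF-10A exosomes 2 were lower, beside 24.4% of all names. The lower count for MDA-MB-231 cells over MCF-10A exosomes was also 2 under median-ratio scaling (22.2% of all names) and at a 2-fold size (29.0%). Both settings also added miR-1274b to the higher names of MCF-10A exosomes over the MCF-10A cell-labelled library, beside 19.1% and 21.0% of all names. Without a minimum level 2 were lower for MDA-MB-231 over MCF-10A exosomes, beside 19.6% of all names. Here and under upper-quartile scaling the added name was miR-1274a, with 0 and 1 reads. Dropping the minimum also added miR-1274a to the higher names of MCF-10A exosomes over the MCF-10A cell-labelled library, beside 13.7% of all names. At an 8-fold size 0 were higher for MDA-MB-231 exosomes over cells and 1 for MDA-MB-231 cells over MCF-10A exosomes, beside 17.0% and 17.2% of all names. The difference of exosome-over-cell folds became -7.25 (miR-720), -6.38 (miR-1274b) and -5.04 (miR-1308) under upper-quartile scaling, and for miR-1308 -3.88 under median-ratio scaling and -2.27 without markers of other tissues in the totals. The summed share became 0.0255% in the MCF-10A cell-labelled library without those markers, and 0.559% in MCF-10A exosomes without the listed fragment names. The median fold of all names for MCF-10A exosomes over that library was -1.11 under upper-quartile scaling. No paired analysis was possible because each group held 1 library. Depth limits miR-1274b and miR-1274a in both exosome libraries.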

Other observations

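Among the names linked to other RNAs, miR-1201, linked to a small nucleolar RNA, was, like miR-1274a, read in the cells of MDA-MB-231 and at 0 in their exosomes. With 0 reads in exosomes and 79 in cells of MDA-MB-231 it was at least 5.49-fold lower with exosomes set at 3 reads, next to at least 6.54-fold for miR-1274a. It also had 0 reads in MCF-10A exosomes and 24 in the MCF-10A cell-labelled library, a difference not detectable at the depth of those exosomes. It was singled out after its values were seen.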
